A study of Arabidopsis thaliana with 39 samples.

Results

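Long transcripts and small RNAs of a transgenic Arabidopsis line, SAIL_232, were set side by side on the plasmid that delivered its transgenes, pCSA110. The 2 samples used, of 39 in the series, were chosen because they are both assays made from rosette leaves of SAIL_232: 1 RNA-seq library and 1 small RNA library. SAIL_232 is an Arabidopsis thaliana line of Columbia background that carries several T-DNA insertions, and the series asked how such insertions are built and how they are expressed and silenced. Both samples came from whole rosettes of pooled plants that still segregated for the insertions, grown in soil under controlled conditions (21 °C and 16 h of light, by the sample labels), and neither was treated. There was 1 library per assay and no control library was compared, so every value below describes these libraries, intervals cover counting error only, and no test between samples was possible. The tables hold plasmid reads alone, without library sizes, so leaf marker genes could not be looked at and each profile is a share of its own table. Positions are bases of the deposited pCSA110 sequence of 7541 bp, counted from its first base. All insertions were laid on this 1 reference, so reads of complete, broken and joined copies cannot be told apart.

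T-DNA is the stretch between the left and the right border that Agrobacterium moves into plant chromosomes, and vector sequence beyond the borders, the backbone, can travel with it. Plants answer some transgenes with small interfering RNAs (siRNAs). The 21 and 22 nt siRNAs are cut from double-stranded RNA and direct the cleavage of matching transcripts, whereas 24 nt siRNAs guide DNA methylation (RNA-directed DNA methylation) and are typical of promoters and transposons. pCSA110 holds bar behind the mannopine synthase (MAS) promoter, bla for growth in bacteria, and the GUS reporter gene behind the pollen-specific LAT52 promoter. bar encodes phosphinothricin acetyltransferase, which gives tolerance to the herbicide glufosinate; bla encodes beta-lactamase, which protects bacteria from ampicillin; and GUS encodes beta-glucuronidase, whose product is stained blue. Read from the plasmid sequence, the left border lay at 245-269, bar at 828-1379, bla at 2465-3325, GUS at 5151-6962, the nopaline synthase terminator at 7028-7288 and the right border at 7400-7424. bar, bla and GUS were all encoded on the plus strand.

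RNA-seq gave 34770 listed pieces of reads on pCSA110, and small RNA sequencing gave 3175 reads of 17 to 50 nt. Of the small RNA reads, 1017 were 21-22 nt long, 401 were 24 nt and 794 were 30-50 nt. The pieces were short, with a median span of 2 bases, because RNA-seq reads had been broken at alignment gap columns. Joined again, with at most 6 pieces allowed to a read, they made 6787 reads, of which 73.8% held 6 pieces. A read listed in more than 6 pieces would count as more than 1 read, and whether any was so listed was not tested. The library was paired-end, and no source used here says whether both mates were listed. If they were, 1 RNA fragment counts more than once, the intervals are too narrow and the listed strand may be that of either mate. Among 1719 joined reads of 30 or more listed bases in several pieces, 90.8% were at least 90% identical to the plasmid when the pieces were run together from the first base. Only 6.17% were so at the positions listed for each piece, so the first base places a read and the later positions run ahead of it. Counts of pieces were kept as the planned measure, and counts of joined reads are given beside them wherever the 2 differ. Shorter joined reads were less certain: 56.4% of the 4580 reads under 30 bases reached the same identity.

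The transcripts and the siRNAs occupied different places on the plasmid. In RNA-seq, 93.5% of the pieces and 87.7% of the joined reads (5950 reads, 86.9-88.4%) began at 501-1500, around bar. Among joined reads of 30 or more bases the share was lower, 64.0% (1412 reads, 61.9-66.0%). The same 1000 bases, 13.3% of the plasmid, held 38.2% of the 21-22 nt reads (389 reads, 35.3-41.3%) and 80 of the 401 reads of 24 nt (16.1-24.2%). The most reads of the 21-22 nt class began at 251-500, between the left border and bar, and the most of the 24 nt class at 4501-4750, in front of GUS. RNA-seq had 0.442% and 0.368% of its joined reads in those 2 windows, and 1.27% and 1.09% of its joined reads of 30 or more bases. Fragments of 30-50 nt, longer than any siRNA, were placed more like the RNA-seq reads: 71.2% of them (565 reads, 67.9-74.3%) began at 501-1500.

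**Figure D1:**
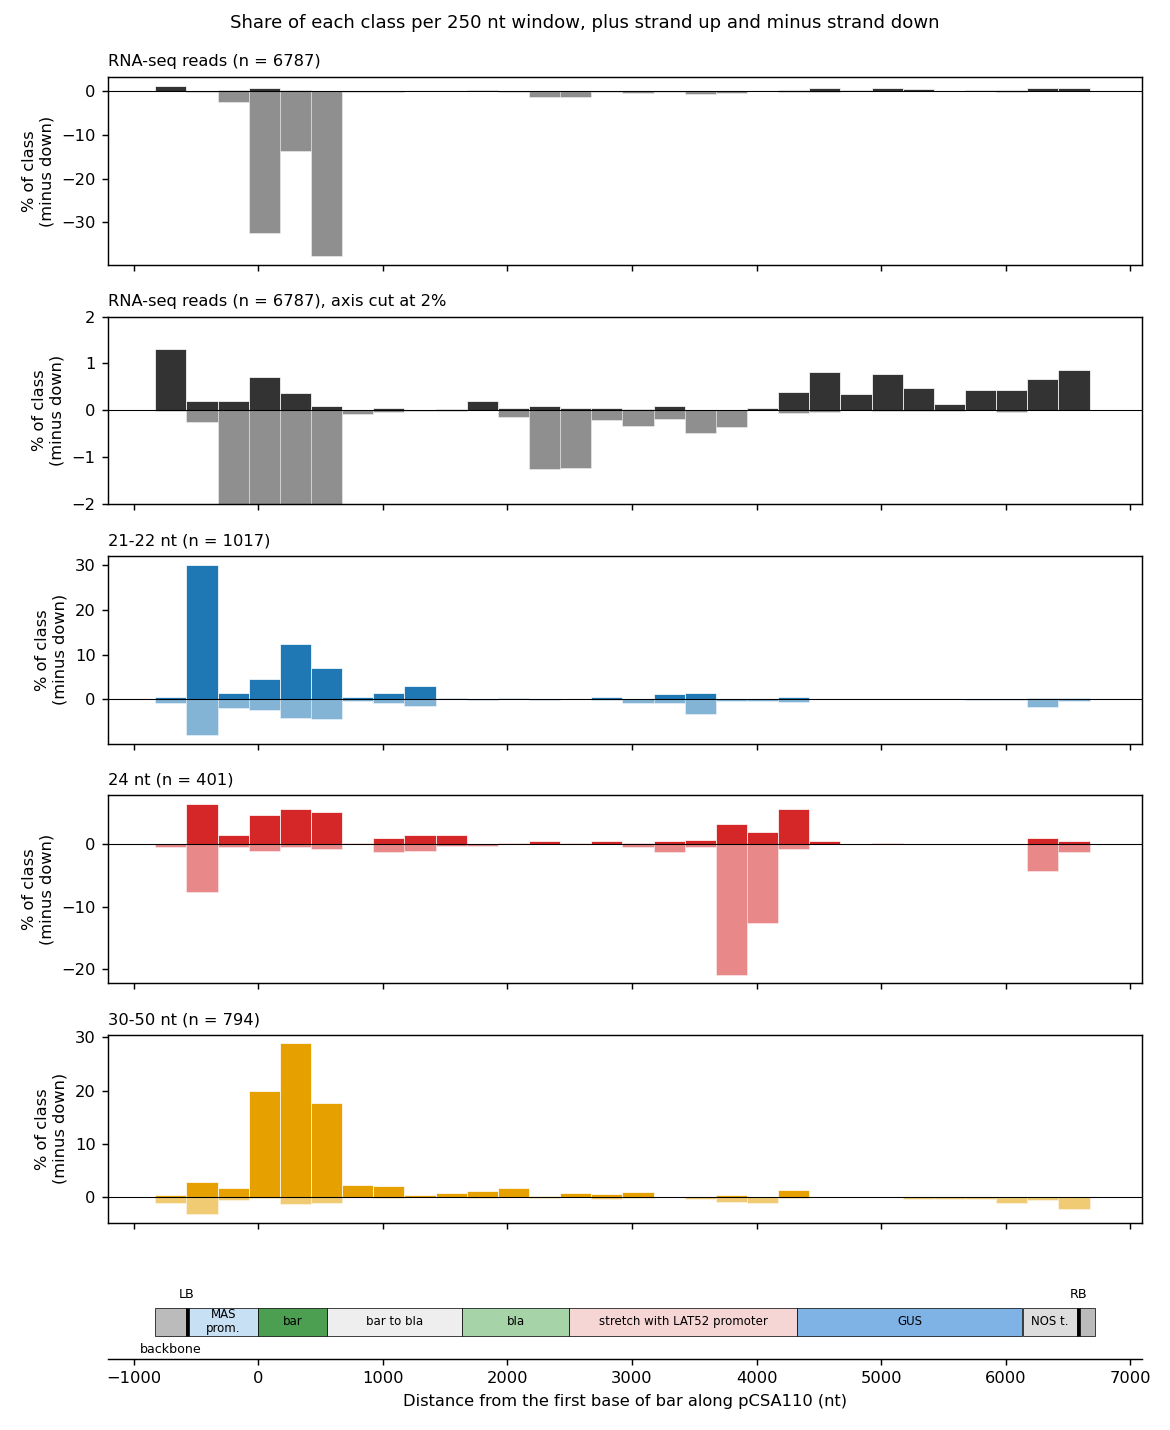
Share of the RNA-seq reads and of each small RNA class that began in each 250 nt window of pCSA110, by distance from the first base of bar, with plus-strand entries drawn up and minus-strand entries down; the RNA-seq profile is drawn again with its axis cut at 2%, and the elements are mapped at the foot. RNA-seq is highest over bar, the 21-22 nt class left of bar, the 24 nt class in front of GUS, and GUS carries RNA-seq reads with hardly any small RNA.

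The likeness of 2 profiles was measured as the area they share, the sum over 31 windows of the smaller of the 2 shares. RNA-seq pieces shared 39.5% with the 21-22 nt profile, 22.9% with the 24 nt profile and 61.3% with the 30-50 nt profile. For joined reads the shared area was 41.9% with 21-22 nt, 26.8% with 24 nt and 63.5% with 30-50 nt. The ranks of the windows were only loosely related: Spearman's rank correlation across the 31 windows was 0.42 for pieces and 0.23 for joined reads against 21-22 nt, and 0.29 for pieces and 0.18 for joined reads against 24 nt. The 2 siRNA classes ranked the windows more alike (rank correlation 0.75) although they shared an area of 49.7%. Windows of 1 library are neighbours on 1 molecule and not replicates, so these are descriptions.

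Windows poor in joined RNA-seq reads held a large part of the siRNAs, unevenly spread, but which windows were poor depended on the count. The 24 windows, 76.8% of the plasmid, that each held under 1% of the joined RNA-seq reads had 8.35% of those reads in all, but 60.1% of the 21-22 nt reads (611 reads) and 78.8% of the 24 nt reads (316 reads). The share was 26.1% for 30-50 nt fragments (207 reads). Among joined reads of 30 or more bases alone, 251-500 held 1.27% and 4501-4750 held 1.09%. By that count neither of these siRNA-rich windows was under 1%. Without the window 251-500 these windows, then 73.5% of the plasmid, held 224 of the 1017 reads of 21-22 nt, and without 4501-4750 they held 219 of the 401 reads of 24 nt. In 8 of the 24 windows there were at most 2 siRNAs of both classes together. Conversely, 4 windows with 10 or more RNA-seq reads lacked 21-22 nt reads and 5 lacked 24 nt reads.

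**Figure D2:**
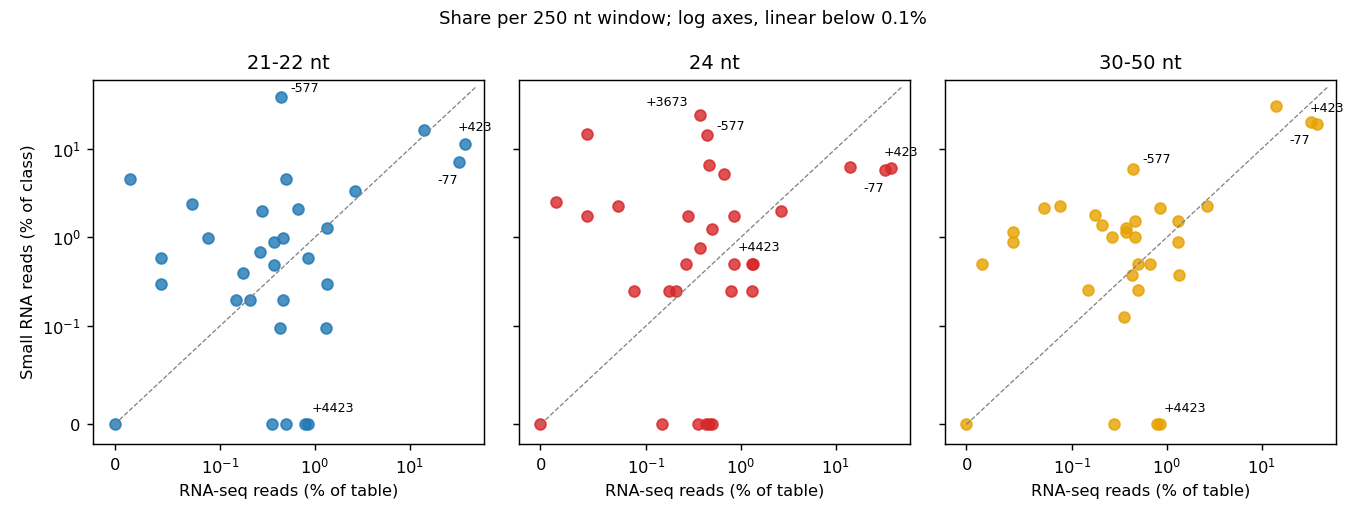
Each point is a 250 nt window, with its share of the joined RNA-seq reads on the horizontal axis and its share of a small RNA class on the vertical axis; both axes are logarithmic and linear below 0.1%, the dashed line marks equal shares, and labels give a window's distance in nt from the first base of bar. The windows at -577 and +3673 lie far above the line, +4423, inside GUS, lies below it, and the 3 bar windows lie at the right.

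The RNA-seq signal fell into blocks of opposite strand. Plus-strand reads made the left end (100 of 101 reads that began at 1-275), minus-strand reads the bar block (5857 of 5950 at 501-1500) and a second block over the end of bla and the stretch after it (275 of 301 at 3001-4750), and plus-strand reads the rest up to the right border (364 of 375 at 4751-7541). Between the minus blocks, 1501-3000 held 41 joined reads in 19.9% of the plasmid, on both strands (23 plus and 18 minus). Over the whole plasmid, 95.6% of the pieces and 91.0% of the joined reads were minus. bar and GUS are encoded on the same strand, yet bar reads were 98.5% minus (4588 of 4657) and GUS reads 96.5% plus (250 of 259). No source used here states which strand this library reports. Whichever it was, the reads of 1 of these 2 genes were listed opposite to its coding strand.

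Ends of reads carried one further sign of strand. Among joined reads of 30 or more bases, 11 ended on the right in 6 or more A with at least 4 of them absent from the plasmid, the form in which the poly(A) tail of a plus-strand transcript would appear, and all 11 were listed as minus. Of these, 6 began at 1441-1500, past the stop codon of bar, 4 at 3246-3293, at the end of bla, and 1 at 4663. The mirror image, a run of T on the left, was found in 2 reads, both listed as plus, which began at 4972 and at 7123. No read ended on the right in such a run of T or began with one of A. The rule was chosen after the reads had been seen, and with 13 reads in all it describes few molecules.

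By listed strand, the siRNAs did not copy this pattern. 21-22 nt reads were 67.4% plus (64.4-70.2%) and 24 nt reads 44.1% plus (39.2-49.2%), so both strands were well represented. At 501-1500, where RNA-seq reads were 98.4% minus, 21-22 nt reads were 33.4% minus, 24 nt reads 13.8% and 30-50 nt fragments 4.25%. At 6751-7500 RNA-seq had 132 plus and 2 minus reads, 21-22 nt 7 plus and 22 minus, 24 nt 6 plus and 22 minus, and 30-50 nt fragments 0 plus and 29 minus. Between neighbouring windows with 20 or more entries each, the majority strand of RNA-seq pieces changed once, with 154 plus and 23 minus pieces at 251-500 and 21 plus and 291 minus pieces at 501-750. By joined reads the change came a window earlier, with 89 plus and 1 minus reads at 1-250 and 13 plus and 17 minus reads at 251-500. The 21-22 nt class changed between 251-500 (306 plus and 81 minus) and 501-750 (15 plus and 19 minus), changed back at 751-1000 (47 plus and 25 minus) and changed again between 4001-4250 (12 plus and 8 minus) and 4251-4500 (14 plus and 32 minus). Of 17 windows with at least 5 RNA-seq reads and 5 fragments of 30-50 nt, the majority strands were opposite in 12 and the same in 5. For 21-22 nt they were opposite in 9 of 16 windows, the same in 5 and tied in 2. For 24 nt they were opposite in 8 of 12 and the same in 4. Strands here are as listed, and the strand that the RNA-seq library reports is not stated. If it lists the complement of the RNA, opposite and same change places. With strands kept apart, RNA-seq pieces shared 6.29% with the 30-50 nt profile as listed and 60.1% with the RNA-seq strand turned round. The same 2 values were 15.9% and 29.7% for 21-22 nt, and 6.38% and 21.5% for 24 nt.

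**Figure D3:**
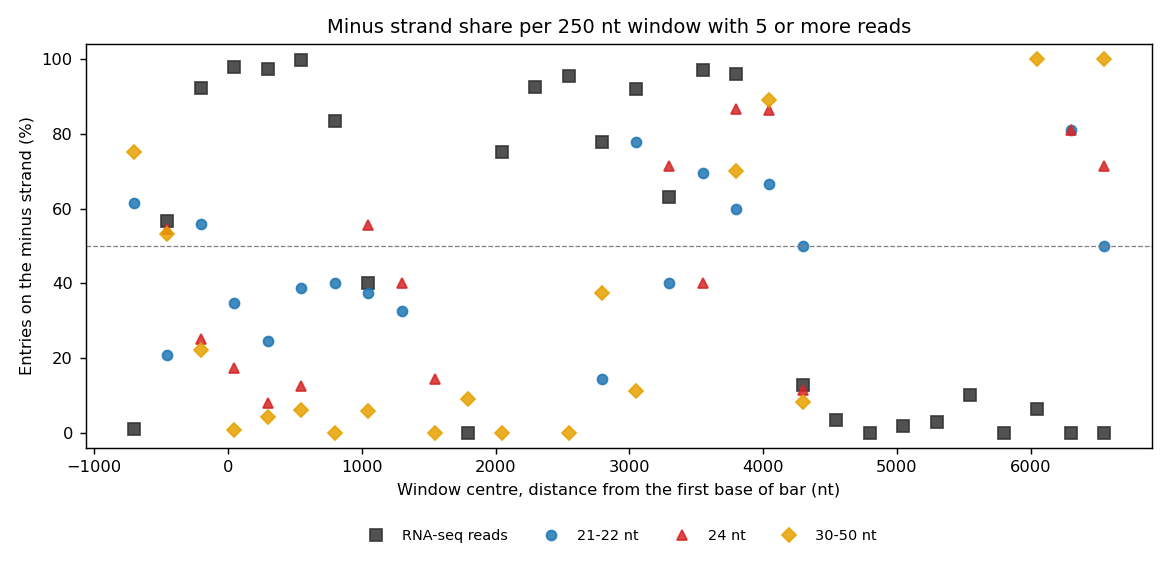
Percentage of entries on the minus strand in each 250 nt window with 5 or more reads, for joined RNA-seq reads and 3 small RNA classes, by distance of the window centre from the first base of bar. RNA-seq reads lie near 100% over bar and near 0% over GUS. Fragments of 30-50 nt lie near 0% over bar. At 5251-6750, inside GUS, no window holds 5 such fragments. Of the windows at its ends, 5001-5250 lies on the side of RNA-seq (11 plus and 1 minus) and 6751-7000 on the other (0 plus and 8 minus).

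Next to the left border, RNA-seq and siRNA signals overlapped, and both were sparse just past base 395. Plus-strand RNA-seq reads began in the backbone (88 of 89 reads at 1-244) and in the left border (11 of 11), and none began on that strand at 276-450. The 91 plus-strand reads from 1-275 with at least 90% identity reached at most base 395, where 2 reads of 130 bases, the longest listed, ended. Read length limits that position, so it need not be an end of the RNA. In the same place lay the largest group of siRNAs: 381 reads of 21-22 nt (37.5% of the class, 34.5-40.5%) began at 251-375, 305 plus and 76 minus, with 81 different combinations of start, end and strand. The last of them also ended at base 395. At 376-475, 6 RNA-seq reads began, all minus, with 1 read of 21-22 nt and 12 fragments of 30-50 nt, all plus. Over 396-450, 3 RNA-seq reads, 1 read of 21-22 nt and 1 of 24 nt had any base. The most frequent 21 nt read, at 312-332 on the plus strand (65 reads, 6.39% of the class), was crossed by 26 plus and 2 minus RNA-seq reads. The 24 nt class was present too, with 56 reads at 251-375 (26 plus and 30 minus), as were 35 fragments of 30-50 nt (10 plus and 25 minus). With all reads of a kind counted once, the stretch between left border and bar still held 25.9% of the 21-22 nt class, against 42.5% with every read counted.

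At bar, starts of joined RNA-seq reads rose steeply just before the coding region. They were not absent before that, as 166 minus reads began at 501-750. Among joined reads of 30 or more bases, 501-750 held 179 reads and 751-1000 held 123, so the rise rested on shorter, less certain reads. Minus-strand RNA-seq starts numbered 31 at 751-775, 226 at 776-800 and 177 at 801-825, against a bar start codon at 828. Fragments of 30-50 nt rose 1 step later, with 4 starts at 776-800 and 58 at 801-825, all plus. The 21-22 nt class had 0 starts at 776-800, which allows a share of up to 0.295%, and 15 at 801-825. Within bar, RNA-seq had 4657 reads, 21-22 nt 300 reads (213 plus and 87 minus), 24 nt 58 reads (53 plus and 5 minus) and 30-50 nt 420 fragments (406 plus and 14 minus). RNA-seq starts were most frequent at 1301-1325 (743 reads), where 21-22 nt also had 38 starts, and next at 926-950 (542 reads), where 21-22 nt had 5. The window 1001-1250, in the middle of bar, held 14.1% of the RNA-seq reads, against 16.4% of the 21-22 nt class, 6.23% of the 24 nt class and 30.1% of the 30-50 nt class. The most frequent siRNA inside bar, a plus-strand 21 nt read at 1114-1134 (22 reads), lay under 6 plus and 174 minus RNA-seq reads. RNA-seq reads were heavily stacked, since the 2197 minus reads at 751-1000 began at 220 positions and the 2561 at 1251-1500 at 178. Starts were uneven. The position with the most reads, 1361, had 163 minus reads, and whether such stacks are copies made in amplification was not tested.

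**Figure D4:**
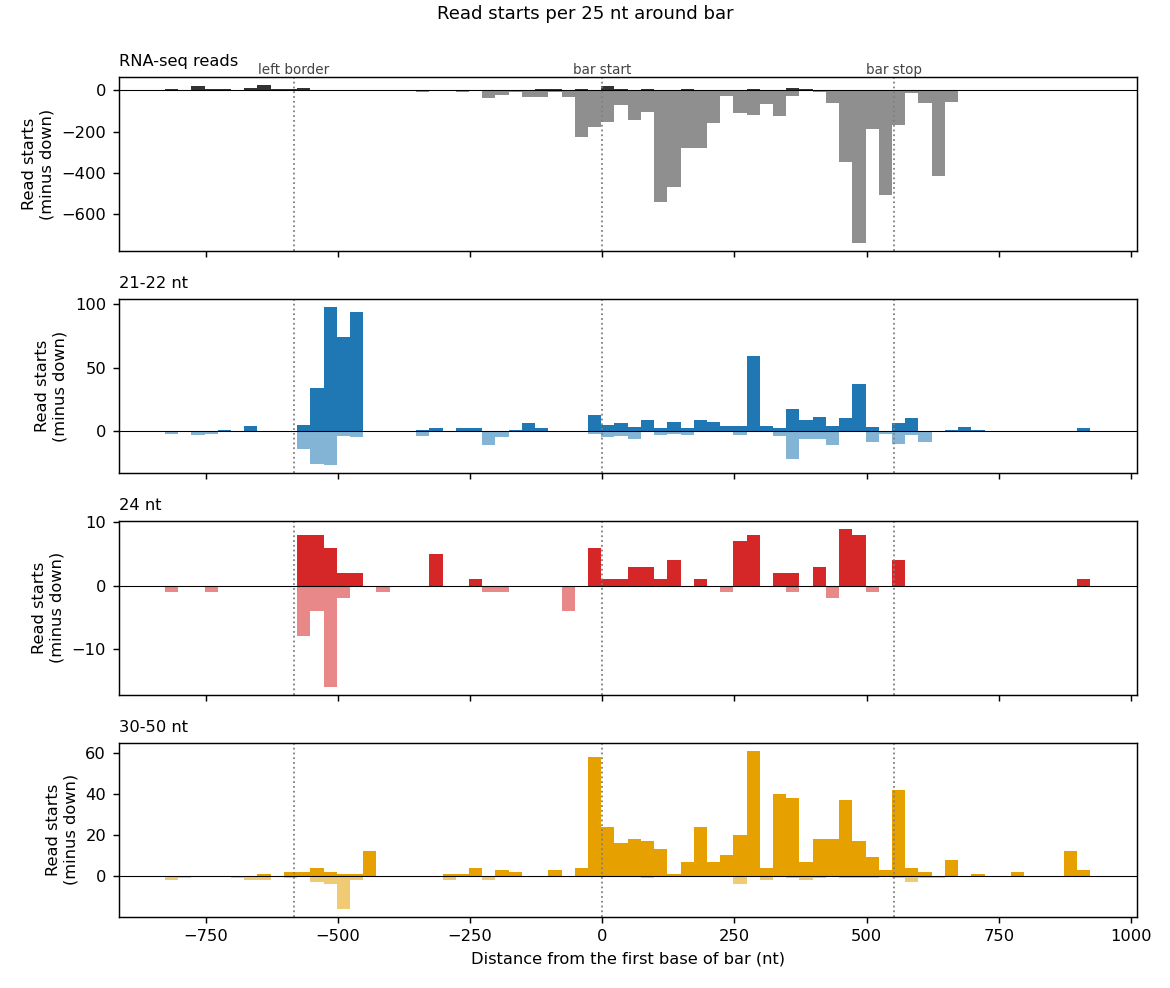
Read starts per 25 nt bin from the backbone to the stretch after bar, with plus-strand starts drawn up and minus-strand starts down, by distance from the first base of bar; dotted lines mark the left border and the first and last base of bar. The 21-22 nt and 24 nt reads next to the left border lie where RNA-seq has few starts. Starts of all joined RNA-seq reads and of 30-50 nt fragments both rise near the start of bar.

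Downstream of bar the RNA-seq signal stopped within a short distance. There were 418 read starts at 1451-1475, 55 at 1476-1500 and 3 at 1501-1525, and the last minus start of this block was at 1507, 128 bases past the stop codon. Reads with all their pieces listed ran to base 1630 at most, 251 bases past it. Counting by piece moved this end to the right: the window 1501-1750 held 701 pieces but 6 joined reads, the pieces there being later parts of reads that began before it. At 1551-1725 RNA-seq had 2 starts, 21-22 nt 2, 24 nt 0 (up to 0.748%) and 30-50 nt 14, all plus. RNA-seq was not absent there by covered bases. In this stretch 531 RNA-seq reads, all minus, had any base, against 3 reads of 21-22 nt and 0 of 24 nt. The siRNAs were thus sparse just after bar, where RNA-seq reads that began before base 1551 still ran on. Further on, at 1751-2250, 6 RNA-seq reads began (0.0884%, 0.0324-0.192%), against 70 siRNAs of 21-22 nt (6.88% of the class, 46 plus and 24 minus). The 24 nt class had 19 starts and the 30-50 nt class 21 in the same place. By share that was the reverse of bar itself, which held 68.6% of the RNA-seq reads and 29.5% of the 21-22 nt reads.

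bla held 193 joined RNA-seq reads (2.84%, 2.46-3.27%), 165 of them minus, against shares of 0.983% for 21-22 nt (0.473-1.80%) and 0.998% for 24 nt (0.272-2.53%). At 3001-3375, 2.62% of the RNA-seq reads began (178 reads, 168 minus), while the shares were 0.393% for 21-22 nt (4 reads), 0.499% for 24 nt (2 reads) and 1.13% for 30-50 nt (9 reads). The 4 reads with an added A run at 3246-3293 came from it. A small group of 21-22 nt reads followed at 4251-4500, where 0.501% of the RNA-seq reads (34 reads) met 4.52% of the 21-22 nt class (46 reads, 14 plus and 32 minus) and 5 of the 401 reads of 24 nt.

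By read starts, the 24 nt class stood almost alone in front of GUS. At 4626-4950, in the stretch with the LAT52 promoter, 6 RNA-seq reads began, all minus, against 147 reads of 24 nt (36.7% of the class, 31.9-41.6%), 14 plus and 133 minus. The 21-22 nt class had 10 starts there. The 24 nt reads were of 28 kinds, and 1 read, at 4644-4667 on the minus strand, made up 63 of them. That read was crossed by 17 minus RNA-seq reads and no plus read. With each kind counted once, the stretch between bla and GUS held 33.3% of the 24 nt class instead of 49.6%, and the class as a whole was 41.4% minus instead of 55.9%. No RNA-seq read began at 4751-4950, which allows a share of up to 0.0442%, while 55 reads of 24 nt did. This gap was the place where RNA-seq changed strand, between the last minus reads before it and the plus reads of GUS after it. The 24 nt class changed strand nearby, with 8 plus and 51 minus reads at 4751-5000 and 23 plus and 3 minus reads at 5001-5250.

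**Figure D5:**
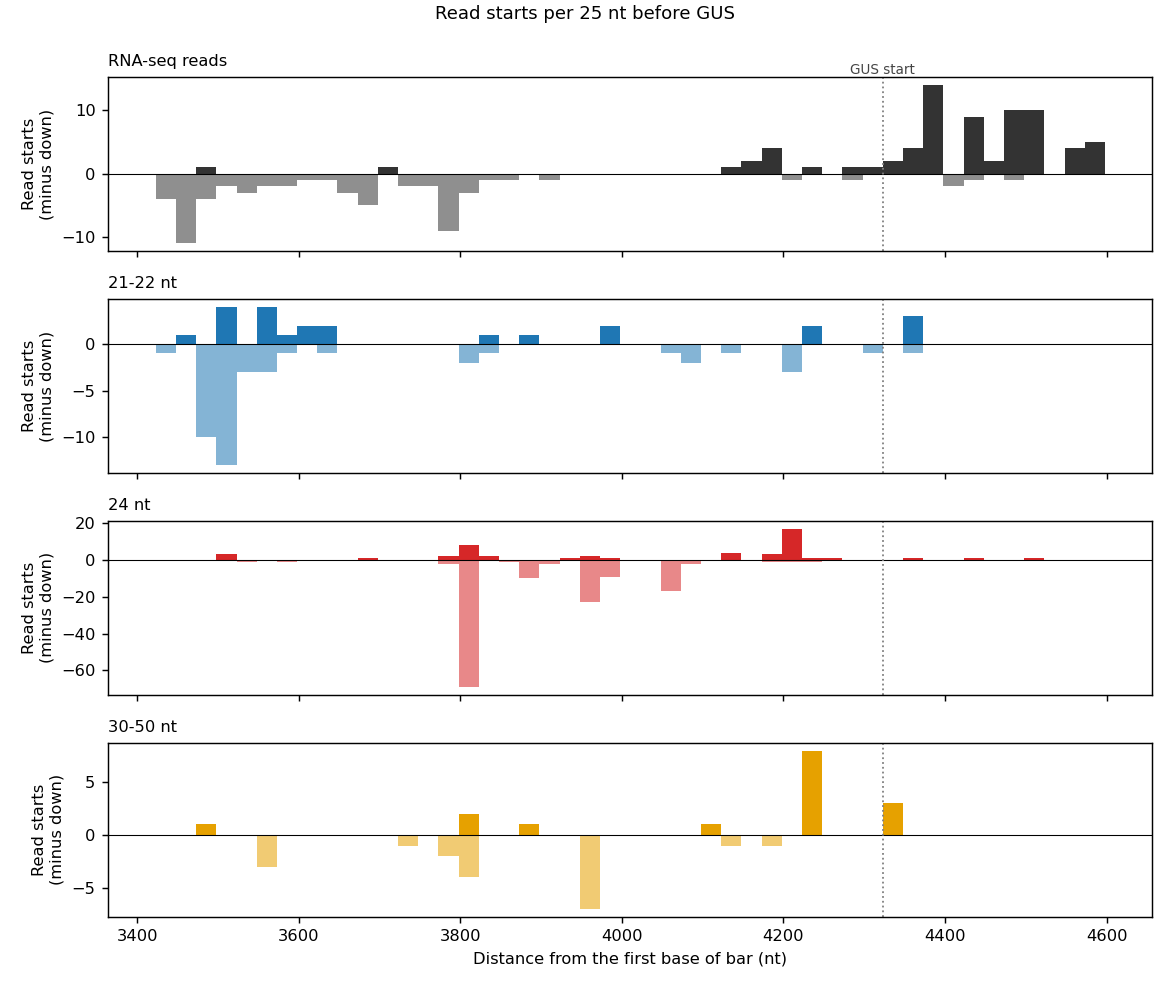
Read starts per 25 nt bin over the stretch in front of GUS and the first bases of GUS, plus strand up and minus strand down, by distance from the first base of bar; the dotted line marks the first base of GUS. RNA-seq starts are absent between the last minus reads and the first plus reads. The largest 24 nt group lies to the left of that gap, and other groups lie inside it.

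GUS was the reverse case, sequence with RNA-seq reads but hardly any siRNA. Its reads were listed on the other strand than those of bar, and whether they were GUS transcripts or their antisense was not tested. It held 259 RNA-seq reads (3.82%, 3.37-4.30%) at 191 combinations of start and strand, but siRNA counts were 8 for 21-22 nt (0.787%, 0.340-1.54%) and 4 for 24 nt (0.998%, 0.272-2.53%). Fragments of 30-50 nt numbered 15 (1.89%). Inside it, 5251-6750 had 207 RNA-seq reads, 202 of them plus, and 3 reads of each siRNA class. The RNA-seq share of GUS depended on the count: it was 0.840% of the pieces, 3.82% of the joined reads and 11.3% of the joined reads with 30 or more bases, because bar reads were listed in many short pieces. bar by the same counts was 75.1%, 68.6% and 25.9%.

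At the right end siRNAs of both classes returned. The nopaline synthase terminator held 63 RNA-seq reads, all plus, 17 reads of 21-22 nt (5 plus and 12 minus) and 20 reads of 24 nt (5 plus and 15 minus). The last RNA-seq start was at 7461, beyond the right border, and 6 reads began in the border or after it (1 and 5). No 21-22 nt or 24 nt read began there, which allows up to 0.295% and 0.748% of those classes, and 2 fragments of 30-50 nt did. The backbone before the left border held more RNA-seq reads, 89, than the backbone after the right border, 5, with 13 and 0 reads of 21-22 nt. No read of these classes, and none of the first 30 bases of the RNA-seq reads, occurred at a second place on pCSA110. In the Arabidopsis reference genome (TAIR10.1), 7 of the 1017 reads of 21-22 nt had an exact match, and none of the 24 nt reads, 30-50 nt reads or first 30 bases of RNA-seq reads had one.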

How the data were processed

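RNA-seq (paired-end) and small RNA (gel-cut, single-end, 2 lanes) reads of SAIL_232 had been trimmed, mapped by the authors to pCSA110 with Bowtie2 and the Geneious aligner, re-mapped to TAIR10, and deposited as lists with strand, first base, last base and sequence; they were not normalized. The labels' processing notes name Bowtie 0.12.7, Bowtie2 2.3.0 and FastQC. Zero mismatches were stated, yet 89.8% of the small RNA reads equalled the plasmid. Growth conditions in the labels and in the study's methods differ. Here, entries were counted by first base in 250 nt windows. Consecutive pieces on 1 strand, at most 16 bases apart and at most 6 in number, were joined into reads. Shares have exact Clopper-Pearson 95% intervals, and a count of 0 allows 3 counts. Borders, coding regions and terminator were located in the deposited plasmid sequences. Windows with at least 5% of a class and all elements were described. Members and lists were chosen with earlier results of these data known. Joining was tested on simulated reads of at most 6 pieces with small gaps, so the limits of 6 pieces and 16 bases were not themselves tested. Plasmid sequences are not printed. Python 3.11.15, numpy 2.4.6, pandas 2.3.3, scipy 1.17.1 and matplotlib 3.10.9 were used; bisulfite and SALK_059379 files were not used here.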

Additional observations from a re-analysis of the deposited data

How the results depend on the processing

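The overlap and correlation values leaned on how entries were counted. The overlap with the 21-22 nt profile was 32.6% in windows of 100 nt, 44.0% in windows of 500 nt, 45.3% for covered bases, 62.3% for distinct entries, 15.9% with strands kept apart and 29.7% with the RNA-seq strand turned round as well. With 24 nt it was 32.3% for covered bases, 44.0% for distinct entries, 6.38% with strands apart and 21.5% with the RNA-seq strand turned round as well. The rank correlation with 21-22 nt was 0.24 and 0.58 in windows of 100 and 500 nt and 0.22 for covered bases, beside 0.23 for joined reads. The rank correlation with 24 nt was 0.035 and 0.49 in windows of 100 and 500 nt, 0.17 in shifted windows, 0.041 for covered bases, 0.13 with strands apart and 0.18 for joined reads.

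Counting distinct entries once gave minus shares of 68.8% for RNA-seq, 40.3% for 21-22 nt and 41.4% for 24 nt, a 95th percentile of minus-strand RNA-seq starts at 4078 instead of 1484, and shares of 48.0% for RNA-seq on bar, 9.02% on GUS, 25.9% for 21-22 nt on the MAS promoter stretch and 33.3% for 24 nt before GUS. Joined reads gave 91.0% minus, 68.6% on bar and 3.82% on GUS, and midpoints 74.0% on bar. Chosen after seeing the data, joined reads of 30 or more bases gave overlaps of 46.3% and 33.7%, rank correlations of 0.23 and 0.17, 76.8% minus, 25.9% on bar and 11.3% on GUS, and each joined start counted once gave overlaps of 50.0% and 36.4% with 21-22 nt and 24 nt. A value was taken as unmoved within its main 95% interval, within 0.1 for rank correlations and within 1 window for positions, and 35 of 75 alternatives for these results were. The majority strand of the 24 nt class turned to plus for distinct entries, and no rank correlation turned its sign. Small RNA reads equal to the plasmid, alone, moved none of them. The cause of the other moves was not tested. No paired analysis was possible because each assay has 1 library.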
